A study of Mus musculus with 12 samples.

Results

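The class II cytokine receptor chains are the 10 genes Il22ra1, Il22ra2, Il10ra, Il10rb, Il20ra, Il20rb, Ifnar1, Ifnar2, Ifngr1 and Ifngr2, taken by symbol from the 24421 genes counted in each library. They were measured by paired-end RNA sequencing of total RNA from Min6, a mouse insulinoma line that models the insulin-secreting beta cell and is described in the labels as wild type. Both groups were exposed to palmitate, a saturated fatty acid, at 0.3 mM for 24 h and to adenovirus for 48 h. The virus carried a control hairpin (sh-ctrl, 6 libraries) or a hairpin against Il22ra1 (sh-Il22ra1, 6 libraries), so no library without palmitate or virus enters the comparison. The design asks which transcripts differ in beta cells with less Il22ra1 under palmitate. Nothing states that the libraries of a group came from separate cultures, so each p-value reflects only spread between these libraries, which may be technical.

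Class II cytokine receptors are built from unlike chains: a long-tailed chain that binds the ligand first and carries JAK1, and a partner that carries TYK2 or JAK2. Ligand joins the chains, the kinases phosphorylate the long tail, and STAT factors that dock there move to the nucleus. IL-22 is read by Il22ra1 with Il10rb, IL-10 by Il10ra with Il10rb, IL-20 and IL-24 by Il20rb with Il20ra or Il22ra1, interferon gamma by Ifngr1 with Ifngr2, and type I interferons by Ifnar1 with Ifnar2. Il22ra2 is a secreted protein that binds IL-22 without signalling. In the pancreas, interferons acting through these chains are known to raise antigen presentation in beta cells, and IL-22 acts on islet and acinar cells.

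Reads in genes numbered 13108494 to 15887448 per sh-ctrl library and 14408576 to 15595603 per sh-Il22ra1 library (biological coefficient of variation 0.105). The unit of level is CPM, the reads of a gene per 1000000 reads in genes with TMM library scaling. The unit of change is the log2 fold change of sh-Il22ra1 over sh-ctrl. The libraries separated by group on the first principal component, which held 54.4% of the variance, and sh-ctrl replicates 1 and 4 stood apart on the second. The share of reads without an alignment was 12.8% to 17.3% in sh-ctrl and 8.71% to 11.8% in sh-Il22ra1, without overlap, and its part in the results was not tested. The 13 beta-cell markers summed to 71395 to 108278 CPM in sh-ctrl and 64058 to 73136 CPM in sh-Il22ra1, so insulin-cell transcripts were abundant in every library, as labelled. Of 13102 genes tested, 51.9% were called at 0.05 in edgeR's quasi-likelihood fit after Benjamini-Hochberg adjustment, 25.4% as higher in sh-Il22ra1 and 26.5% as lower.

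Of the 10 chains, 6 had enough reads to be tested across genes: both interferon gamma receptor chains, both type I interferon receptor chains, Il10rb and Il20rb. Ifngr2 and Ifngr1 were higher in sh-Il22ra1, Il20rb was lower, and Il10rb, Ifnar1 and Ifnar2 did not pass the test. The 3 calls among 6 tested chains stand beside the 51.9% of all genes called, while the median size of the change was 0.18 for these chains and 0.26 for all tested genes on the log2 scale. The signed medians were 0.03 for these chains and -0.0043 for all tested genes. The same 3 chains were the tested ones whose groups did not overlap, which 28.1% of all tested genes did. Summed over the 10 chains, the level was 222.7 to 241 CPM in sh-ctrl and 248.8 to 268 CPM in sh-Il22ra1, without overlap. That sum is not a shared rise, since it adds unlike changes. By group mean Ifngr2 went from 50.9 to 88.8 CPM and Ifngr1 from 31.1 to 38.6 CPM, while Il20rb went from 48.7 to 27.6 CPM. The other 4 chains, Il22ra1, Il22ra2, Il10ra and Il20ra, had too few reads for that test and are described by their reads.

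The start regions of the chains that differed (Il22ra1, Il20rb, Ifngr1 and Ifngr2) and of Ifnar1 and Ifnar2, which did not pass, are shown so that their letters can be compared. RefSeq promoters on GRCm38.p6 were matched for 7 of the 10 chains, each covering 250 bases before and 50 bases after the start. They are printed 5′ to 3′ in the direction of the gene, with capitals marking the STAT-binding GAS element (TTCNNNGAA), the interferon response core (GAAA, 2 bases of any kind, GAAA) and the GC box (GGGCGG), each searched on both strands and free to overlap. The first is Ifngr1 at chr10:19591699-19591998, plus strand.
Ifngr1: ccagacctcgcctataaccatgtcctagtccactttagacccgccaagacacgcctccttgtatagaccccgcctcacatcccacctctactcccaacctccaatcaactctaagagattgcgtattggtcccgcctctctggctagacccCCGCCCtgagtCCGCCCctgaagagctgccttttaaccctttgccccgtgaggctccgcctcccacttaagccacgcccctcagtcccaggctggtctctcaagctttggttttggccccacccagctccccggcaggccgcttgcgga
The next is Ifngr2 at chr16:91546809-91547108, plus strand.
Ifngr2: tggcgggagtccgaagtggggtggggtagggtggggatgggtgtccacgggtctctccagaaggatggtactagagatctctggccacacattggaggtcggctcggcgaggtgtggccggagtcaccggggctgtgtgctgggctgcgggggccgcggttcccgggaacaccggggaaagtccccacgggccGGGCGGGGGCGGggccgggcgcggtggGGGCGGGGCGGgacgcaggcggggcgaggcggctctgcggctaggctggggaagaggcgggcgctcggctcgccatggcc
Il22ra1, the targeted chain, has chr4:135727909-135728208, plus strand.
Il22ra1: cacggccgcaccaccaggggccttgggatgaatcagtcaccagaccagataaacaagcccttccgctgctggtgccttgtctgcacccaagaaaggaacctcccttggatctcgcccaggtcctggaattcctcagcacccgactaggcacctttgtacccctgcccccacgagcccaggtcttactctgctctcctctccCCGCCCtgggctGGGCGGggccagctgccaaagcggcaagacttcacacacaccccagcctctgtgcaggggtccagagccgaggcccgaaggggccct
The window of Il20rb, which fell, is chr9:100486424-100486723 on the minus strand. Its RefSeq start is 315 bases downstream of the GENCODE start of the gene, so it lies inside the GENCODE gene, whereas the other windows printed here start within 23 bases of the GENCODE start.
Il20rb: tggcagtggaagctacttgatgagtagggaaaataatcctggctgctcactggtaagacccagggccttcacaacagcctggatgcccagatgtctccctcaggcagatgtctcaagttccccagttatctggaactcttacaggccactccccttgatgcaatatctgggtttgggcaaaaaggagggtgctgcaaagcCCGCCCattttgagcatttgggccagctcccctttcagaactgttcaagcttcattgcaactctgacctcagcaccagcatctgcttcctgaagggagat
Ifnar1 starts within chr16:91484965-91485264, plus strand.
Ifnar1: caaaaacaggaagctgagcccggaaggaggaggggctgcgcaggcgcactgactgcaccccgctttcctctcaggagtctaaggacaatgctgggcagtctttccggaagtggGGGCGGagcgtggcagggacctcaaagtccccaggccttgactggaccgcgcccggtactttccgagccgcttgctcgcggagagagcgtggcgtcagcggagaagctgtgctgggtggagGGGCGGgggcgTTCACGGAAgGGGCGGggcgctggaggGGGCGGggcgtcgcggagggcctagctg
Ifnar2 starts within chr16:91372533-91372832, plus strand.
Ifnar2: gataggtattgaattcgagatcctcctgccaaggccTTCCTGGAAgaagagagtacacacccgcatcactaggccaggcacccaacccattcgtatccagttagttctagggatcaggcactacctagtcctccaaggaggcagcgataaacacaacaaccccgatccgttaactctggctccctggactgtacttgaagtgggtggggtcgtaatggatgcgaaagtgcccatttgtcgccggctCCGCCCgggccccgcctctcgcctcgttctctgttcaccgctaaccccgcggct

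These start regions differ widely in composition. Ifngr2 was 74.3% G and C with 31 CpG dinucleotides, Ifnar1 68.3% with 26, Il22ra1 64.0% with 11, Ifngr1 60.3% with 14 and Ifnar2 57.0% with 18. The Il20rb window, which lies within the GENCODE gene, was 52.0% with 1. The medians over 32851 promoters of the same length were 52.7% and 7. The GC box, a site bound by Sp family factors, occurred in 35.7% of all promoters. It occurred 4 times in Ifngr2, at -57, -51, -30 and -25 from the start, 4 times in Ifnar1, 2 times in Ifngr1 at -99 and -88, 2 times in Il22ra1 at -49 and -37, and once each in Il20rb and Ifnar2. A GAS element, present in 8.30% of all promoters, was found at -5 in Ifnar1 and at -214 in Ifnar2. The interferon response core, present in 3.44% of all promoters, was found in none of the 7. These matches describe letters and not occupied sites.

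Il22ra1, the ligand-binding chain of the IL-22 receptor and the target of the hairpin, was the first check of the labels. The gene spans 135728172 to 135752140 of chromosome 4 (GRCm38, plus strand). The sh-ctrl libraries 1 to 6 held 10, 15, 9, 7, 13 and 20 reads of it, and the sh-Il22ra1 libraries 1 to 6 held 2, 1, 4, 4, 3 and 1. Every sh-Il22ra1 library was below every sh-ctrl library. The sh-ctrl mean was 0.831 CPM ± 0.256 (SD, n = 6), and the sh-Il22ra1 mean was 0.164 CPM ± 0.0873 (SD, n = 6). The ratio of summed reads, 74 against 15, was 0.197. Its 95% exact Poisson interval, 0.105 to 0.346, covers counting error alone. A two-sided exact permutation test gave p = 0.00216, the smallest value 6 against 6 libraries allow. With no low-count filter, edgeR gave a log2 fold change of -2.28, SE 0.409, adjusted p = 8.14e-05.

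**Figure D1:**
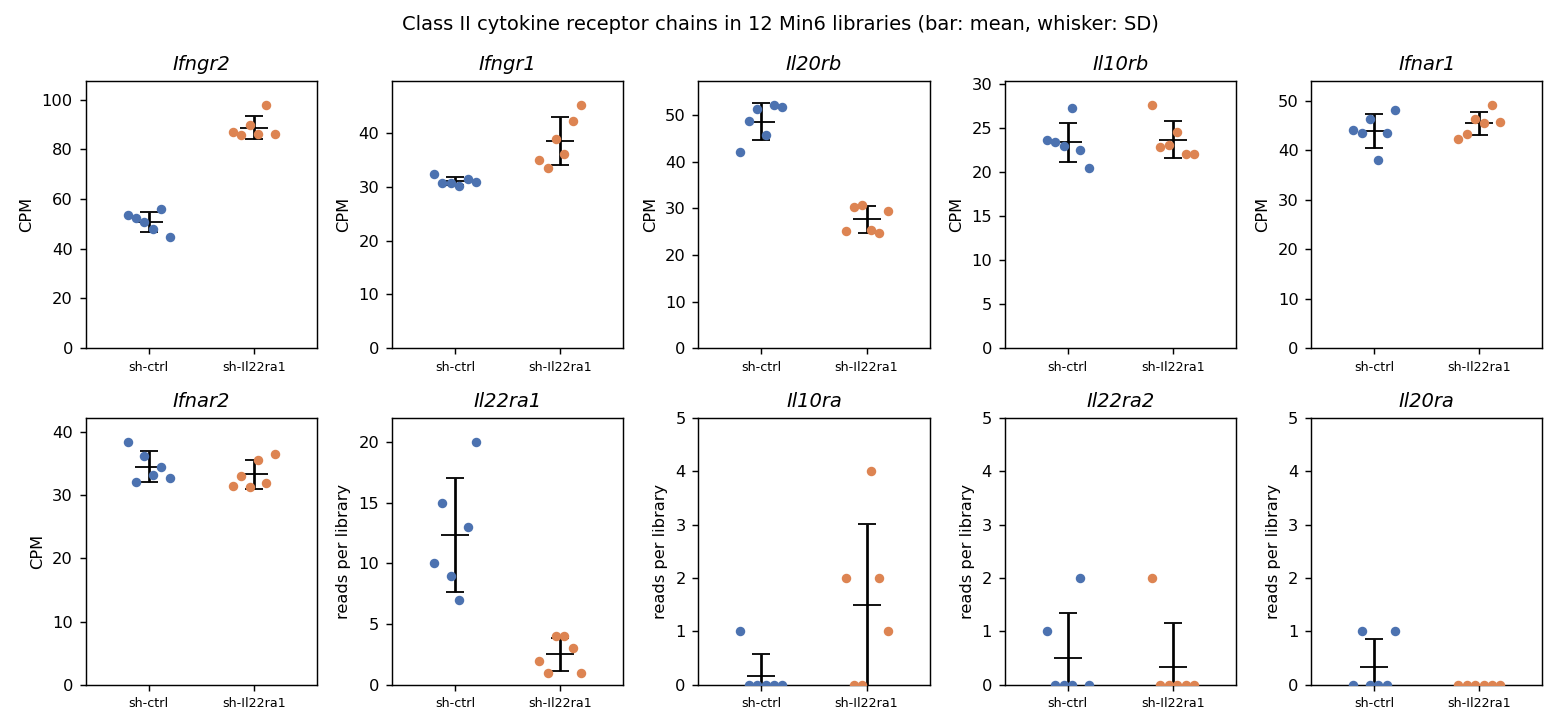
Level of each class II receptor chain in each library. The vertical axis gives CPM for the 6 tested chains and reads for the 4 chains near the floor, points are libraries, and bars give mean ± SD of 6 libraries. Ifngr2, Ifngr1 and Il20rb separate by group, and Il22ra1 drops from 7 to 20 reads per sh-ctrl library to 1 to 4 per sh-Il22ra1 library.

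Il10rb, the shared chain that completes the receptors for IL-22 and IL-10, did not pass the test. Its level was 20.4, 23.1 and 27.3 CPM (lowest, median, highest) in sh-ctrl and 21.95, 23.0 and 27.5 CPM in sh-Il22ra1. The groups overlapped almost fully. The means were 23.3 CPM ± 2.24 (SD, n = 6) and 23.6 CPM ± 2.11 (SD, n = 6), a log2 fold change of 0.02 (SE 0.0817, edgeR adjusted p = 0.852). The 95% interval of -0.14 to 0.18 bounds the change at this depth but does not show that the levels are alike. The sign of this value turns under the length and GC offsets and under leaving out either of 2 libraries.

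Il10ra, the ligand-binding chain of the IL-10 receptor and typical of leukocytes, was near the floor. It had 1 read in sh-ctrl, in replicate 1, and 2, 0, 0, 4, 2 and 1 reads in sh-Il22ra1 replicates 1 to 6. The ratio of reads was 8.73 with an interval of 1.21 to 383, and the groups overlapped. Without a low-count filter the adjusted p was 0.0702 by edgeR, so no change was called. Of 14 leukocyte markers 3 were tested, and 2 of them, Cd68 and Laptm5, were lower, beside 26.5% of all tested genes. The list summed to 19.8 to 29.0 CPM in the sh-ctrl libraries and 6.45 to 10.6 CPM in the sh-Il22ra1 libraries. Most of that sum was Cd68 alone, at a mean of 22.1 CPM in sh-ctrl and 6.17 CPM in sh-Il22ra1. The part of these markers in the chain results was not tested. Of the defining leukocyte markers, Ptprc (CD45) had 3 and 8 reads over the 2 groups, Cd3e 4 and 1, and Cd8a none. In bulk RNA fewer cells of a type and less RNA per cell cannot be told apart.

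Il22ra2, the soluble IL-22 binding protein, had 3 reads in sh-ctrl and 2 in sh-Il22ra1. Il20ra, the long-tailed IL-20 receptor chain, had 2 reads in sh-ctrl and 0 in sh-Il22ra1. Both are at or below the floor of 3 reads in each group, so no fold is given. Absence cannot be told from low expression at this depth, and the 3-read floor corresponds to 0.0343 CPM over the sh-ctrl libraries and 0.0333 CPM over the sh-Il22ra1 libraries. In sh-Il22ra1 replicates 2 to 6 the treatment label reads sh-Il22ra2 to sh-Il22ra6, the first of which names another chain described here. The titles, which put these libraries in 1 group, were followed, and the reads of Il22ra2 are too few to bear on that label.

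Il20rb, the shared IL-20 receptor chain, fell. The gene spans 100457719 to 100486788 of chromosome 9, minus strand. Its lowest, median and highest levels were 42.2, 50.02 and 52.2 CPM in sh-ctrl and 24.7, 27.4 and 30.7 CPM in sh-Il22ra1. Every sh-Il22ra1 library was below every sh-ctrl library. The means were 48.7 CPM ± 4.01 (SD, n = 6) and 27.6 CPM ± 2.85 (SD, n = 6), a 1.76-fold fall with a log2 fold change of -0.82 (SE 0.0785, edgeR adjusted p = 1.04e-07). Falls at least this large were called in 6.10% of all tested genes. Over all 12 libraries Il20rb had 6772 reads, against 2 for Il20ra and 89 for Il22ra1, the chains it is known to pair with.

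Ifngr2, the accessory chain of the interferon gamma receptor that carries JAK2, rose the most of the tested chains. Its lowest, median and highest levels were 44.8, 51.7 and 56.0 CPM in sh-ctrl and 85.6, 86.6 and 97.7 CPM in sh-Il22ra1. The groups were separated by a wide gap. The means were 50.9 CPM ± 4.05 (SD, n = 6) and 88.8 CPM ± 4.65 (SD, n = 6), a 1.74-fold rise with a log2 fold change of 0.80 (SE 0.0635, edgeR adjusted p = 8.45e-09). Rises at least this large were called in 2.50% of all tested genes.

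Ifngr1, the ligand-binding chain of the same receptor, rose less. Its lowest, median and highest levels were 30.1, 30.9 and 32.4 CPM in sh-ctrl and 33.6, 37.6 and 45.2 CPM in sh-Il22ra1. The sh-ctrl libraries lay close together, and the sh-Il22ra1 libraries were spread above them without overlap. The means were 31.1 CPM ± 0.770 (SD, n = 6) and 38.6 CPM ± 4.50 (SD, n = 6), a 1.24-fold rise with a log2 fold change of 0.31 (SE 0.0747, edgeR adjusted p = 0.00189). Rises at least this large were called in 2099 of the 13102 tested genes. With offsets for transcript length and GC content the value for Ifngr1 was 0.18 with an adjusted p of 0.0324.

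The type I interferon receptor chains did not pass the test. Ifnar1, which carries TYK2, had lowest, median and highest levels of 38.0, 43.9 and 48.2 CPM in sh-ctrl and 42.3, 45.6 and 49.1 CPM in sh-Il22ra1. Ifnar2, the high-affinity ligand-binding chain, had 32.0, 33.8 and 38.4 CPM in sh-ctrl and 31.2, 32.5 and 36.6 CPM in sh-Il22ra1. The groups overlapped for both chains. The log2 fold change was 0.05 for Ifnar1 (SE 0.0657, edgeR adjusted p = 0.578, approximate 95% interval -0.08 to 0.17). For Ifnar2 it was -0.05 (SE 0.0684, edgeR adjusted p = 0.551, approximate 95% interval -0.19 to 0.08). The sign for Ifnar1 turns when sh-ctrl replicate 4 is left out, alone or with replicate 1.

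**Figure D2:**
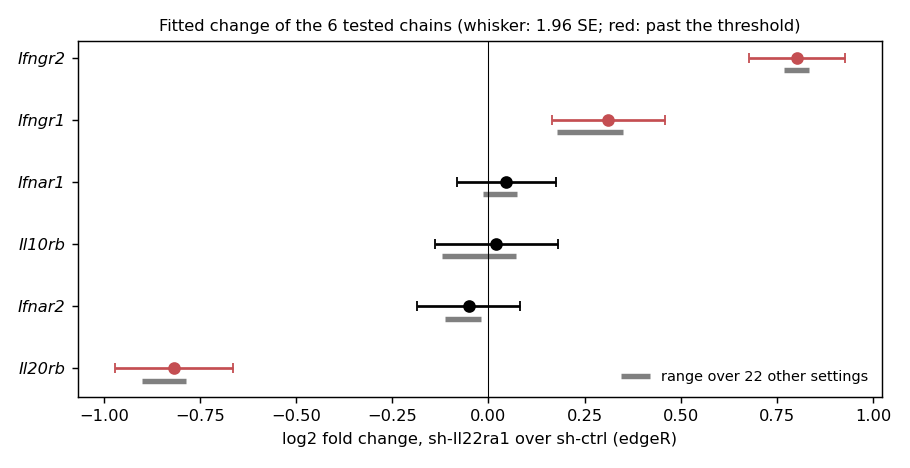
Log2 fold change of each tested chain in sh-Il22ra1 over sh-ctrl with its 95% interval, and the range of the value over the other settings. Ifngr2 (0.80) and Il20rb (-0.82) lie on opposite sides of 0, Ifngr1 is at 0.31, and the intervals of Il10rb, Ifnar1 and Ifnar2 include 0.

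The balance between the chains of 1 receptor was compared within each library, where library scaling cancels. In the interferon gamma receptor, the log2 ratio of Ifngr1 reads to Ifngr2 reads averaged -0.71 ± 0.103 (SD, n = 6) for sh-ctrl against -1.21 ± 0.147 (SD, n = 6) for sh-Il22ra1. The ratio fell by 0.50, without overlap, and a two-sided exact permutation test gave p = 0.00216, or 0.00325 after Benjamini-Hochberg adjustment over 3 pairs. In the type I receptor, the log2 ratio of Ifnar1 to Ifnar2 was 0.35 ± 0.138 (SD, n = 6) and 0.45 ± 0.120 (SD, n = 6). The groups overlapped and the exact permutation p was 0.214. In the IL-22 receptor, the log2 ratio of Il22ra1 to Il10rb was -4.80 ± 0.539 (SD, n = 6) and -7.03 ± 0.683 (SD, n = 6), lower by 2.23 without overlap (exact permutation p = 0.00216, adjusted 0.00325). This last value rests on 89 reads of Il22ra1 and is -1.25 when 5 reads rather than 0.5 are added to each count. Il22ra1 is the target of the hairpin and Il10rb did not pass. The ratio of Il22ra1 to Il10rb therefore repeats the fall of Il22ra1 and is not a separate result. Its p-value is among the 3 adjusted together, so the adjusted value for Ifngr1 to Ifngr2 depends on it. The Ifngr1 to Ifngr2 ratio comes from the same reads as the fitted rises of 0.31 and 0.80. That ratio shows that Ifngr2 rose more than Ifngr1 and is not independent of those rises. Il10rb with Il10ra and Il20ra with Il20rb were not tested because Il10ra and Il20ra had 10 and 2 reads.

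**Figure D3:**
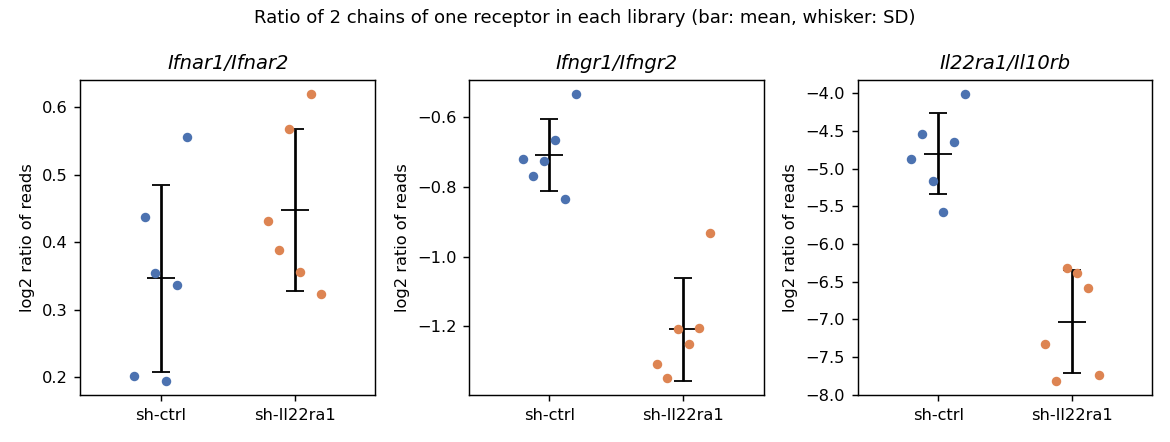
Log2 ratio of the reads of the chains of 1 receptor in each library, with mean ± SD of 6 libraries per group. Ifngr1 to Ifngr2 falls from -0.71 to -1.21 and Il22ra1 to Il10rb from -4.80 to -7.03 without overlap, while Ifnar1 to Ifnar2 overlaps.

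Levels were compared between chains as CPM per kb of the longest coding transcript. In sh-ctrl the order was Il20rb at 17.4, Ifngr1 at 14.7, Ifngr2 at 13.7, Il10rb at 12.6, Ifnar2 at 11.3 and Ifnar1 at 11.2 CPM per kb. Each neighbour in that order overlapped the next over the 6 libraries. Il22ra1 followed far below at 0.324 CPM per kb. In sh-Il22ra1 Ifngr2 came first at 23.9 and Ifngr1 second at 18.3, both clear of their next neighbour, and Il20rb came sixth at 9.89 CPM per kb. Il22ra1 was at 0.0640 CPM per kb and overlapped Il10ra. The order depends on the length used: per kb of all annotated exons, Ifngr2 was first in sh-ctrl at 13.5 and Il10rb last of the tested chains at 6.13 CPM per kb.

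**Figure D4:**
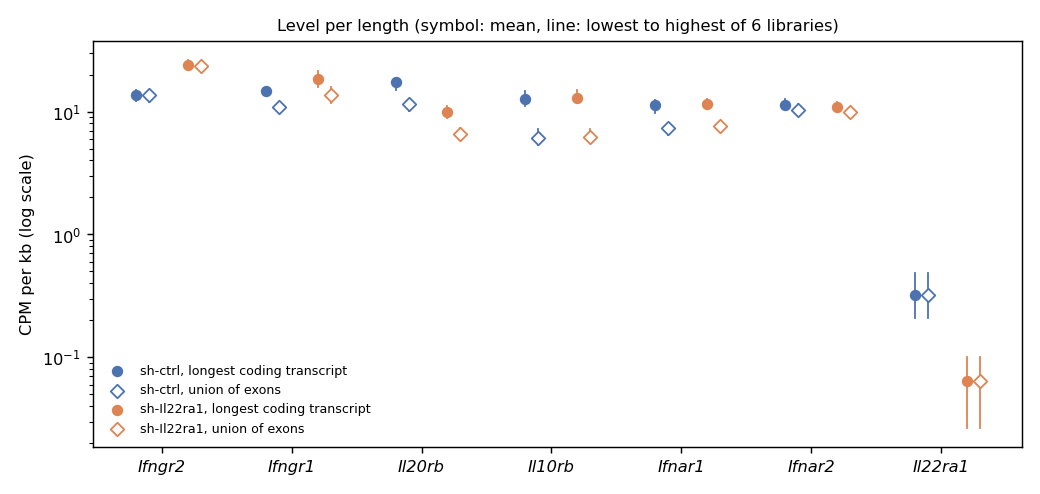
Level of the 7 chains with most reads as CPM per kb, on a log scale, for sh-ctrl and sh-Il22ra1. Symbols are means and lines run from the lowest to the highest of 6 libraries. Filled circles use the longest coding transcript and open diamonds use all annotated exons. By the longest coding transcript, the means of the tested chains lie between 11.2 and 17.4 CPM per kb in sh-ctrl. They spread from 9.89 to 23.9 in sh-Il22ra1, with Il22ra1 far below.

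The chains Ifnar2, Il10rb, Ifnar1 and Ifngr2 share 1 stretch of chromosome 16 and did not move alike. In GRCm38 they run on the plus strand from Ifnar2 (91372783 to 91405589) through Il10rb (91406164 to 91425834) and Ifnar1 (91485238 to 91507441) to Ifngr2 (91547072 to 91565623), within 192.841 kb. Ifngr2, at the far end, was higher, and the other 3 did not pass. Of the other counted genes that lie in this span, A930006K02Rik did not pass (-0.09) and Mir6367 had no read. A read-through gene, Gm21970, covers 9.46% of the exon bases of Ifnar2 and 14.9% of those of Il10rb on the same strand, so reads there could have been counted to either or set aside. On chromosome 10, Ifngr1 (from 19591949), Il22ra2 and Il20ra (to 19760053) lie within 168.105 kb, and Ifngr1 was the only one of these 3 with enough reads to test. Il10ra lies on chromosome 9 from 45253837 to 45269149, minus strand.

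Across libraries, after each group's mean was removed, the chains did not share their nearest genes. Over 12 libraries and 10291 genes, the highest Pearson r with Ifngr2 was 0.91 for Mipep, followed by Gyg and Fam120b. The genes nearest Ifngr1 were Vimp (0.85), Arih2 and Tra2a, and those nearest Il20rb were Pcsk7 (0.92), Manba and Arv1. The nearest were Fam124a (0.90), Ralb and Ano9 for Il10rb, Galnt11 (0.93), Phkb and Zkscan3 for Ifnar1, and Camk2n2 (0.93), Rab5c and Hscb for Ifnar2. These correlations share depth and library effects and are a description only.

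Ifnlr1, the ligand-binding chain of the interferon lambda receptor and a close relative of Il22ra1, ends 19.991 kb before Il22ra1 on chromosome 4. It rose from 4.10 CPM ± 1.20 (SD, n = 6) to 6.08 CPM ± 0.839 (SD, n = 6), a log2 fold change of 0.56 (SE 0.175, edgeR adjusted p = 0.0124), with overlapping groups. Without sh-ctrl replicates 1 and 4 the value was 0.37 and still called. F3, tissue factor, a member of the family by fold but not a cytokine receptor, went from 9.40 to 7.67 CPM, a log2 fold change of -0.29 (SE 0.120, edgeR adjusted p = 0.0497). That call was lost in 12 of 22 other settings.

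The ligands were almost undetected. Of 27 genes for class II cytokines, 9 had any read. Ifng and Ifnb1, for interferon gamma and interferon beta, had none in any library, which allows up to 0.0343 CPM in sh-ctrl and 0.0333 CPM in sh-Il22ra1. Il22 had 3 reads in sh-ctrl and 0 in sh-Il22ra1. Il10 had the most, 56 and 12 reads, a ratio of 0.208 with an interval of 0.101 to 0.393, and no other ligand had more than 10.

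Downstream of the chains, 11 JAK kinases and STAT factors were tested, of which 1 was higher, 2 were lower and 8 did not pass, with a median log2 fold change of -0.04. The called share was 27.3%, beside 51.9% of all tested genes. Jak1, the kinase on the long chains, fell from 75.3 CPM ± 5.76 (SD, n = 6) to 63.6 CPM ± 3.06 (SD, n = 6), a log2 fold change of -0.24 (SE 0.0622, edgeR adjusted p = 0.00294). Jak2, the kinase carried by Ifngr2, fell by 0.46 (SE 0.116, edgeR adjusted p = 0.0027). Jak3, which serves class I receptors that use the common gamma chain, was higher by 0.53. With length and GC offsets 4 members of this list were higher, without sh-ctrl replicate 6 there were 3 and without sh-ctrl replicate 2 there were 2. Tyk2 (0.02), Stat2 (-0.04), Stat3 (-0.07) and Irf9 (0.09) did not pass. Tyk2 was called with length and GC offsets (0.19, edgeR adjusted p = 0.0289), and Stat3 without sh-ctrl replicates 1 and 4 (-0.21, edgeR adjusted p = 0.0058).

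Of 17 inhibitors of the receptors and of JAK-STAT signalling, 4 were higher, 5 were lower and 8 did not pass, with a median of -0.02. That is 52.9% called, near the 51.9% of all tested genes. The lower count was 3 without sh-ctrl replicate 5 or without sh-Il22ra1 replicate 2, 4 or 5. Usp18, which binds Ifnar2 and damps type I interferon signalling, rose from 125 CPM ± 5.78 (SD, n = 6) to 169 CPM ± 6.09 (SD, n = 6), a log2 fold change of 0.44. Pias4, an inhibitor of STAT signalling, was higher by 0.82. Socs2 fell by 0.76 and Socs3, a feedback inhibitor induced by STAT3, by 0.24, while Socs1, the feedback inhibitor of the interferon gamma receptor, had a log2 fold change of 0.34 and did not pass (edgeR adjusted p = 0.167). Of 11 genes for receptor trafficking and turnover, 3 were higher, 3 were lower and 5 did not pass, so 54.5% were called, also near that share. Ap2m1, the cargo-binding subunit of the AP-2 endocytic adaptor, fell by 1.18, and Btrc, a ubiquitin ligase subunit known to degrade Ifnar1, rose by 0.45.

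The target genes of the receptors were counted on 3 lists. Of 17 tested interferon gamma target genes, 10 were higher, none was lower and 7 did not pass, with a median of 0.37 beside -0.0043 for all tested genes. The 7 had values on both sides of 0, such as Cxcl10 (-0.21) and Psmb8 (0.25). The other 11 genes of the list had too few reads to be tested, and their reads went both ways. Cxcl11 had 45 reads in sh-ctrl and 19 in sh-Il22ra1, and Gbp5 had 36 and 73. Icam1, an adhesion molecule, rose from 60.99 CPM ± 3.14 (SD, n = 6) to 100 CPM ± 3.42 (SD, n = 6). Tap1, a peptide transporter, rose by 0.61, Irf1, a transcription factor, by 0.46, and H2-K1, a class I histocompatibility gene, by 0.53. H2-K1 has near-identical relatives whose reads the counting could have split. Of 24 tested type I interferon target genes, 3 were higher, 6 were lower and 15 did not pass, with a median of -0.07. Another 6 genes of that list were not tested. Usp18 and Cmpk2 (0.52) were among the higher, and Irf7 (-0.28) and Rsad2 (-0.49) among the lower. The called share was 58.8% of the tested interferon gamma targets and 37.5% of the tested type I targets, beside 51.9% of all tested genes. Over all tested genes 25.4% were higher and 26.5% lower. The difference between these 2 lists was not tested.

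The STAT3 and IL-22 target genes moved in both directions. Of 15 tested, 7 were higher, 7 were lower and 1 did not pass, with a median of 0.21, where 25.4% and 26.5% of all tested genes were higher and lower. Saa3, an acute-phase protein, rose from 7.74 CPM ± 1.89 (SD, n = 6) to 26.8 CPM ± 2.89 (SD, n = 6), a log2 fold change of 1.80 (SE 0.128, edgeR adjusted p = 2.04e-09). Lcn2, an iron-binding acute-phase protein, was higher by 1.14, Junb by 0.73 and Pim2 by 0.47. Saa3, Lcn2, Junb and Pim2 had the smallest p-values of the list, so the naming rule gave no lower gene beyond Socs3, the STAT3 feedback gene. The 7 lower genes were Il6st (-0.72), Myc (-0.60), Bcl3 (-0.51), Bcl2l1 (-0.35), Fos (-0.31), Socs3 (-0.24) and Cebpd (-0.19). The other 13 genes of the list were not tested, and 5 of them had at least 20 reads over the 12 libraries: Reg3b, Reg3g, S100a9 (3 and 23 reads in sh-ctrl and sh-Il22ra1), Fut2 (8 and 20) and Saa1 (5 and 16). These genes were named after their values were seen. Reg3b, a secreted antimicrobial lectin, had 0, 0 and 9 reads (lowest, median, highest) in sh-ctrl and 1, 13 and 44 in sh-Il22ra1. Reg3g, its relative, had 1 read in all of sh-ctrl and 46 in sh-Il22ra1, 19 of them in 1 library. The groups overlapped for both, and the ratios of summed reads were 8.57 (counting interval 4.71 to 17.1) and 44.6 (7.62 to 1801). Reg3b and Reg3g are similar in sequence, so their reads could have been split.

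**Figure D5:**
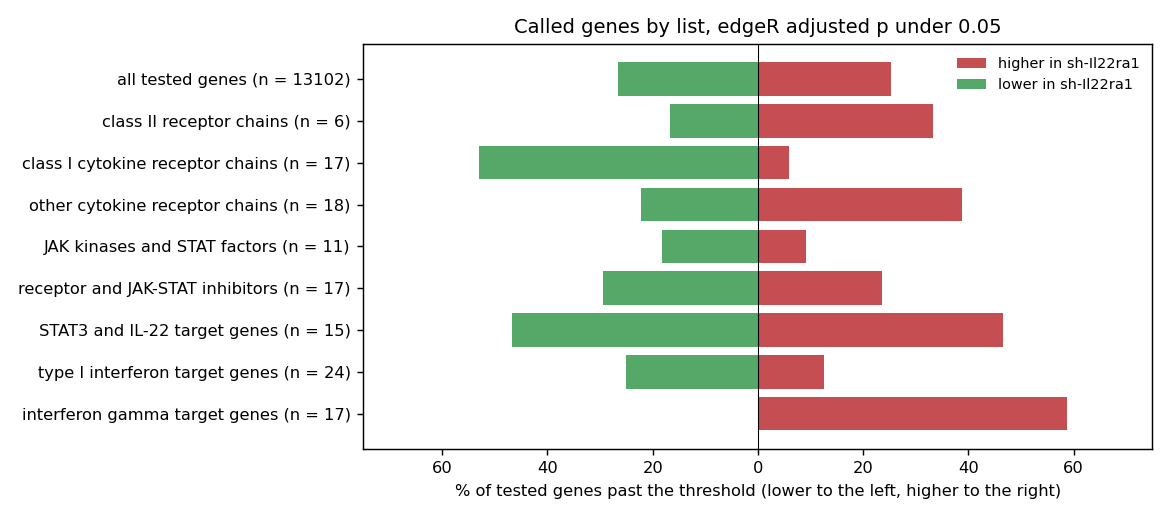
Percent of tested genes that were called higher (to the right) or lower (to the left) in sh-Il22ra1. Rows are all tested genes, the class II receptor chains, lists around them and other receptor lists. The bars stand for 10 higher and 0 lower of 17 tested interferon gamma targets. They stand for 7 and 7 of 15 STAT3 and IL-22 targets, and 1 and 9 of 17 class I receptor chains.

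Other receptor families give the setting for the chains. Of 17 tested class I cytokine receptor chains, 1 was higher, 9 were lower and 7 did not pass, with a median of -0.54, beside 25.4% higher and 26.5% lower over all tested genes. With no low-count filter 3 were higher. Cntfr, for ciliary neurotrophic factor, fell by 1.61, Prlr, the prolactin receptor, by 1.58, Ghr, the growth hormone receptor, by 0.80 and Il13ra1 by 0.57. Of 18 other cytokine receptor chains tested, 7 were higher, 4 were lower and 7 did not pass, with a median of -0.06. The lower count was 2 without sh-ctrl replicate 2 or 5. Il1r1, the IL-1 receptor, fell by 0.94 and Ltbr by 0.92, while Il17rc rose by 0.63 and Il18r1 by 1.13. The 6 tested class II chains, with 2 higher and 1 lower, were not tested against these families.

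Markers of other cell types are given for the whole lists, beside 25.4% of all tested genes higher and 26.5% lower. Fibroblast markers summed to 4.95 to 13.7 CPM in sh-ctrl and 3.12 to 4.31 CPM in sh-Il22ra1, and 3 of 4 tested were lower. Endothelial markers summed to 87.9 to 129.7 and 73.0 to 89.2 CPM, with 1 of 3 tested lower and the defining marker Cdh5 at 4 and 0 reads. Most of the endothelial sum was Plvap alone, at means of 99.9 CPM in sh-ctrl and 75.3 CPM in sh-Il22ra1. Of 5 tested ductal markers 1 was higher and 3 were lower, and both tested non-beta islet hormones, Gcg and Sst, were lower. Of the 13 beta-cell markers 3 were higher, 6 were lower and 4 did not pass, and 1 was higher with length and GC offsets. Their part in the chain results was not tested.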

How the data were processed

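Min6 cells of 6 sh-ctrl and 6 sh-Il22ra1 samples were compared, grouped by sample title. The submitters' processing notes name HISAT2 2.0.5, HTSeq and mm10. The annotation and strand setting of the counting were not given in the sources used here. The deposited counts are whole reads per gene symbol, without the 5 rows of unassigned reads, which hold no gene. The deposited CPM table gave whole reads within 0.001 for 100% of its values, so it served only as a repeat of the counts. Libraries were scaled by TMM with edgeR 4.0.16 (R 4.3.3), filterByExpr removed genes of low count (minimum 10 per library, 15 in total), and the quasi-likelihood test gave p-values that were adjusted by Benjamini-Hochberg and read at 0.05. Chains with too few reads have reads, an exact permutation test over 924 splits if 20 or more reads were found, and a conditional Poisson interval at 95%. Each SE of a fitted change is the size of the log2 fold change over the square root of the test's F value. Intervals of fitted changes are 1.96 SE to either side, a normal approximation that can be narrower than the test implies. The members, the gene lists and the rule that named genes were chosen with earlier results of these data known. The rule named all members, up to 4 called genes of each list with the smallest p, fixed signalling genes, and the 3 genes most like each member. GENCODE M21 (GRCm38) gave positions, exon overlap and lengths, where 23376 symbols matched, 670 by synonym and 375 not at all, and promoters came from RefSeq. The code was tested on simulated data. No 2 libraries agreed within sampling noise (smallest chi-square per degree of freedom 3.96). The alternatives used DESeq2 1.42.0, limma-voom (limma 3.58.1), scaling by RLE or the upper quartile, other filters, a replicate block, each library left out, sh-ctrl replicates 1 and 4 left out together, length and GC offsets, and the recovered CPM reads, which were added after seeing the data. The values of some genes that the rule named are not reported here.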

Additional observations from a re-analysis of the deposited data

Results flagged for a closer look

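Of 50 groups of 6 libraries checked, 7 had a library whose gap to its nearest neighbour was more than 0.625 of the group's range, which chance gives in about 1 in 20 groups. Ifngr2 was 97.7 CPM in sh-Il22ra1 replicate 5 against 89.99 in the next library. The Ifngr1 to Ifngr2 log2 ratio was -0.93 in sh-Il22ra1 replicate 6 against -1.21. Il22ra2 was 0.137 CPM in sh-Il22ra1 replicate 1 and Il10ra 0.0769 CPM in sh-ctrl replicate 1, each from the only library of its group with a read. In such a group the gap equals the whole range, so the rate of 1 in 20 does not hold for these chains. F3 was 11.8 CPM in sh-ctrl replicate 1 against 9.21, Stat2 was 27.5 CPM in sh-Il22ra1 replicate 1 against 23.7, and Stat3 was 191 CPM in sh-Il22ra1 replicate 3 against 165.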

How the results depend on the processing

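Ifngr2 (0.77 to 0.83), Ifngr1 (0.18 to 0.35) and Il20rb (-0.90 to -0.79) were called in the same direction in all 22 other settings. Among these, the recovered CPM reads are the same counts and could not differ, and fits with 1 library left out share most libraries. The count of chains called lower was 2 with no low-count filter, because Il22ra1 then enters the test. The ratio for Il22ra1 was 0.175 to 0.221 over 16 settings. Signs of values that did not pass in the reported fit turned. With length and GC offsets Il10rb was -0.12, Stat2 0.0100 and Stat3 0.0693. Without sh-ctrl 1 and 4 together Ifnar1 was -0.0142 and Tyk2 -0.12. Leaving out 1 library at a time gave -0.0265 to 0.0559 for Il10rb, -0.0048 to 0.0746 for Ifnar1, -0.0431 to 0.0719 for Tyk2 and -0.11 to 0.0248 for Stat2. Tyk2 became called with length and GC offsets (0.19) and Stat3 without sh-ctrl 1 and 4 together (-0.21). The cause of these changes was not tested. Interferon gamma targets called higher were 9 to 12 over the settings. Across settings 2881 to 3781 genes were higher and 3239 to 4146 lower. The replicate numbers did not pair the libraries: same-number correlations ran from -0.03 to 0.23, with 1 of 6 best with its own number, and the replicate block gave 3463 higher and 3566 lower and changed no call of a receptor chain. Chains under 20 reads limit what this depth can show. Per kb of all annotated exons, the sh-ctrl and sh-Il22ra1 levels were 7.40 and 7.64 CPM for Ifnar1, 10.4 and 10.0007 for Ifnar2, 10.9 and 13.5 for Ifngr1, 6.13 and 6.21 for Il10rb, and 11.6 and 6.57 for Il20rb.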
